A study of Mus musculus with 278 samples.

Results

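The receptors through which ovarian, pituitary, adrenal and thyroid hormones reach mammary cells were followed in single cells, and 6 of 25094 kept genes made up this set. They were Esr1, Pgr, Prlr, Nr3c1, Thra and Ghr. They were chosen by name as hormone receptor genes, with no measured value as a criterion but with earlier results of these data known. Esr1 encodes estrogen receptor alpha, Pgr the progesterone receptor and Nr3c1 the glucocorticoid receptor, and these are steroid receptors. Prlr encodes the prolactin receptor. Thra, a thyroid hormone receptor, and Ghr, the growth hormone receptor, bind hormones that are neither steroids nor prolactin. Single epithelial cells of FVB/NJ mouse mammary glands, with no transgene or treatment named, were captured on the Fluidigm C1, a microfluidic system in which every cell gets a chamber, and cDNA is made there. There were 43 adult cells sorted as luminal, 112 adult cells sorted as basal and 123 cells of the total epithelium at mid-pregnancy, which were not split into luminal and basal cells. A read stands for a read pair assigned to a kept gene, and 222 of 278 cells had the 50000 or more reads required here. These were 41 adult luminal, 85 adult basal and 96 pregnancy cells.

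Steroid and thyroid receptors are transcription factors that bind their hormone inside the cell and act on DNA. The prolactin and growth hormone receptors sit in the membrane and signal through the kinase Jak2 and the Stat5 factors. In the adult gland, estrogen and progesterone receptors are known from a subset of luminal cells, the mature or hormone-sensing cells, which pass the signal on through secreted factors. Prolactin, together with glucocorticoids, drives the making of milk proteins by alveolar luminal cells during pregnancy.

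Each library was 1 cell and the labels named no animal, and a group is therefore a single sample. Differences below have no replicate check and were not tested. The 95% intervals of shares (Clopper-Pearson) treat the cells as independent draws, and those of summed reads (Poisson) treat the reads so. Both are computed exactly, cover counting error at most and leave out differences between animals. PCR copies could not be told from separate molecules and reads were spread unevenly over cells, so the intervals of summed reads are too narrow. Detection means 1 or more reads after every cell was thinned to 50000 reads. Reads per retained cell had medians of 378407 in adult basal, 637420 in adult luminal and 215144 in pregnancy cells, and at equal depth the medians of genes per cell were 2247, 3418 and 3266.5. CPM is the reads of a gene per 1000000 reads of a cell or of a group summed over its cells.

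The sorts were checked with keratins and with 10 basal and 10 luminal markers, none of which is a hormone receptor. The basal keratin Krt14 stood at 3155 CPM in adult basal, 58.8 in adult luminal and 738 in pregnancy cells, and the contractile gene Acta2 at 9862, 115 and 4130 CPM. The luminal keratins Krt8 and Krt18 stood at 1111 and 2865 CPM in adult luminal cells, at 232 and 182 CPM in adult basal cells, and at 382 and 538 CPM in pregnancy cells. A cell with at least 3 more basal than luminal markers detected was called basal-marked, and the converse luminal-marked. All 85 adult basal cells were basal-marked and 39 of 41 adult luminal cells were luminal-marked. Adult luminal cell 35 detected 10 basal and 8 luminal markers, and adult luminal cell 26 only 2 luminal markers. Among pregnancy cells 28 were luminal-marked, 38 basal-marked and 30 lay between. At least 3 markers of a non-epithelial type were detected in 1 adult basal, 6 adult luminal and 25 pregnancy cells, fibroblast markers in 6 adult luminal and 11 pregnancy cells. The 7 fibroblast markers summed to 48.3 CPM in adult basal (Lum and Dpt at 0), 1919 in adult luminal and 1702 in pregnancy cells, with single cells up to 3042, 35175 and 41161 CPM.

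Esr1 lies on chromosome 10 (4611989 to 5005633, GRCm38), Pgr on chromosome 9 (8898900 to 8968611) and Prlr on chromosome 15 (10177238 to 10349190). These were the members whose summed levels differed most between the groups, so the 250 bases before a transcription start are shown for each, from RefSeq on GRCm38, plus strand, 5′ to 3′. Capitals mark matches to 4 motifs searched on both strands. The estrogen response element half-site was searched as GGTCA. The STAT motif was searched as TTCNNNGAA, which reads the same on both strands. The half-site of the glucocorticoid and progesterone response element was searched as TGTTCT. The forkhead motif, which Foxa1 binds, was searched as TGTTTAC and as its variant TGTTTGC. None of these matches overlapped another.
Esr1, chr10:4611739-4611988: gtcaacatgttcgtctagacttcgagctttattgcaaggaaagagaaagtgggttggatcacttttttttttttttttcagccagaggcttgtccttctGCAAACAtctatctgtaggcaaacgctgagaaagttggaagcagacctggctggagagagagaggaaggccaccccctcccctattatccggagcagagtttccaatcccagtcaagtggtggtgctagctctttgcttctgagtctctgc
Pgr, chr9:8899583-8899832: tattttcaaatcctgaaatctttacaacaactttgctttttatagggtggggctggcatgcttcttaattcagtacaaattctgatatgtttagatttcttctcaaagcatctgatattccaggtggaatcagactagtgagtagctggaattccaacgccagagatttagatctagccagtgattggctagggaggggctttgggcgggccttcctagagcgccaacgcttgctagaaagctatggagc
Prlr, chr15:10223656-10223905: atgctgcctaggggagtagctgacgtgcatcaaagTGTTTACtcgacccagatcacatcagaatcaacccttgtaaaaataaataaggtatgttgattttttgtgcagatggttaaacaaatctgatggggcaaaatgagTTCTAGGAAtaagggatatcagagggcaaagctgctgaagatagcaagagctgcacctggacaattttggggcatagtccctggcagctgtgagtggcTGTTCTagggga
The Esr1 window held 1 forkhead match, starting 151 bases before the start site. A second Esr1 window, not shown, held 1 STAT match 188 bases before its start. The Prlr window is 1 of 3 for this gene and was chosen for display after the matches were seen, and the other 2 held no match to any of the 4 motifs. The window shown held a forkhead match at 215, a STAT match at 110 and a TGTTCT match at 12 bases before the start. Of 32851 windows of this length, 7.29% held the forkhead, 7.02% the STAT, 16.1% the TGTTCT-type and 35.2% the GGTCA-type motif. None of the 8 windows of Esr1, Pgr, Prlr and Ghr held GGTCA on either strand, which says only that these letters were not in these windows.

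Nr3c1 lies on chromosome 18 (39410545 to 39519421), Thra on chromosome 11 (98740776 to 98769006) and Ghr on chromosome 15 (3317755 to 3583352). The end of Thra overlaps Nr1d1, a clock gene on the other strand, by 1075 bases, and the library kit did not mark strand, so reads there could belong to either gene. Nr1d1 stood at 7.39 CPM in adult basal, 41.4 in adult luminal and 20.5 in pregnancy cells.

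Which receptors marked the 2 adult layers was asked first. Prlr was the receptor of the adult luminal sort. It was detected in 39 of 41 adult luminal cells (95.1%, 83.5 to 99.4%). Among adult basal cells 3 of 85 had it (3.53%, 0.734 to 9.97%). Across adult luminal cells Prlr ranged from 11.4 to 18123 CPM with a median of 4435, and across adult basal cells from 0 to 119 with a median of 0. Summed levels were 5732 CPM (5702 to 5762) in adult luminal and 1.48 CPM (1.11 to 1.94) in adult basal cells, a log2 ratio of 11.92 (11.53 to 12.33). The 2 sets of cells overlapped only at the lower end, and 83.0% of the basal reads came from adult basal cell 35, without which the log2 ratio was 14.46.

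Esr1 and Pgr had the same direction with far fewer reads. Esr1 was detected in 26 of 41 adult luminal cells (63.4%, 46.9 to 77.9%), with a median of 37.4 and a maximum of 526 CPM, while 2 of 85 adult basal cells had a read (2.35%, 0.286 to 8.24%). Its summed level was 111 CPM in adult luminal and 3.70 CPM in adult basal cells, a log2 ratio of 4.91 (4.66 to 5.18). Adult basal cell 88 held 92.4% of the basal Esr1 reads, and without it the basal level was 0.282 CPM and the log2 ratio 8.63. Pgr was detected in 25 adult luminal cells (61.0%, 44.5 to 75.8%), with a median of 51.2 and a maximum of 1060 CPM, and in 8 adult basal cells (9.41%, 4.15 to 17.7%). Its summed levels were 118 and 37.8 CPM, a log2 ratio of 1.65 (1.55 to 1.74). Of the basal Pgr reads 73.6% came from adult basal cell 94, at 2858 CPM the highest Pgr level of any retained cell, and without that cell the log2 ratio was 3.55.

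Nr3c1, Thra and Ghr were under 2-fold apart between the adult sorts. Nr3c1 was detected in 20 adult luminal cells (48.8%, 32.9 to 64.9%) and 27 adult basal cells (31.8%, 22.1 to 42.8%), and the intervals overlap. Its levels reached 761 CPM in luminal cells around a median of 6.00, and 1858 CPM in basal cells around a median of 0, with summed levels of 73.8 and 95.1 CPM and a log2 ratio of -0.37 (-0.45 to -0.28). Thra was detected in 6 adult luminal and 5 adult basal cells, with highest cells at 279 and 492 CPM, summed levels of 18.3 and 19.2 CPM and a log2 ratio of -0.07 (-0.24 to 0.10). That ratio was 1.30 without adult basal cell 2, which held 62.2% of the basal reads, and -1.12 without adult luminal cell 14, so 1 cell took it past 2-fold in either direction. Ghr was detected in 9 adult luminal and 14 adult basal cells, with highest cells at 1842 and 1712 CPM, summed levels of 62.5 and 70.9 CPM and a log2 ratio of -0.18 (-0.28 to -0.09). Adult luminal cell 12 held 83.3% of the luminal Ghr reads, and without it the log2 ratio was -2.72.

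In all, 3 of 6 receptors were 2-fold or more higher in adult luminal than in adult basal cells and 0 were lower. Of 14344 genes with a ratio, 36% were 2-fold or more higher and 24% lower, and the median log2 ratio of all genes was 0.33. The count alone therefore does not set the receptors apart from other genes. Prlr does stand out by size, since 16 of the 14344 genes, Prlr included, had a ratio as high, against 1255 for Esr1 and 3849 for Pgr.

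**Figure D1:**
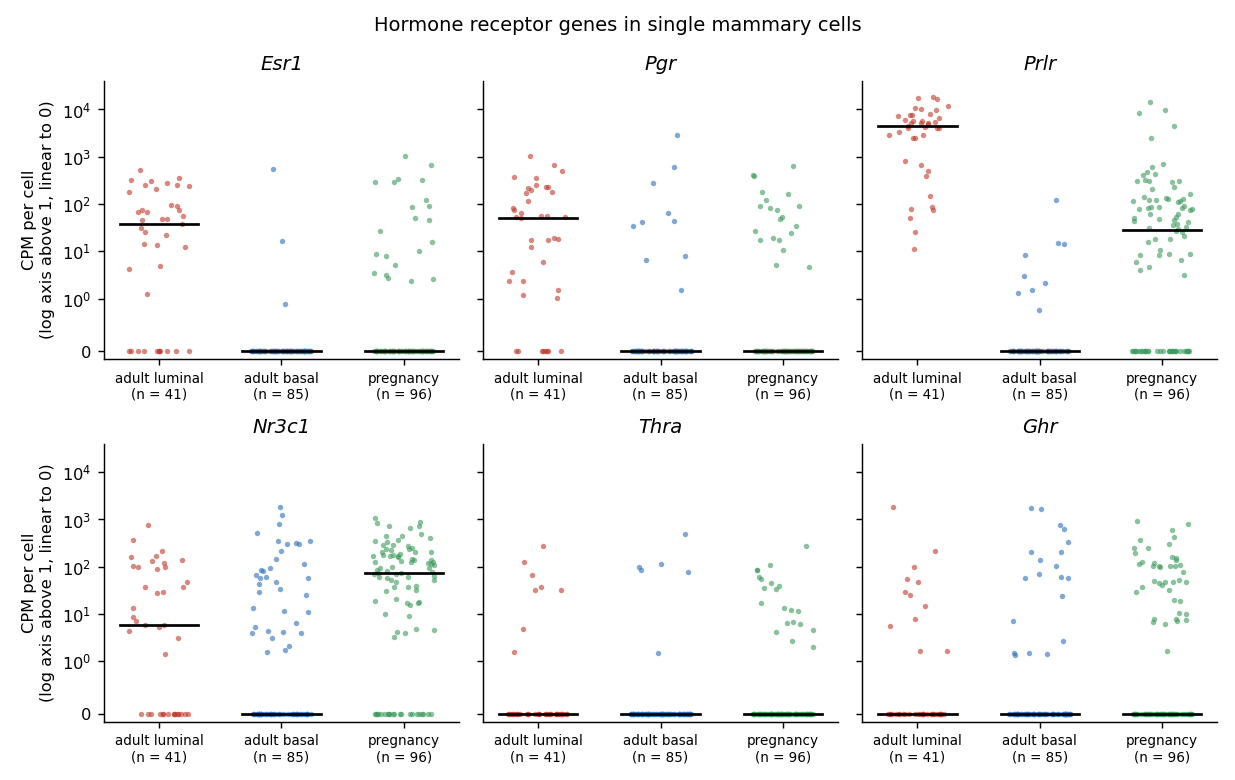
CPM of each receptor gene in every retained cell (points; log axis above 1, linear to 0), for 41 adult luminal, 85 adult basal and 96 pregnancy cells, with the group median as a line. Prlr is read in every adult luminal cell, with a median of 4435 CPM, and the median of each receptor in adult basal cells is 0.

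Compared per length, as reads per kilobase per 1000000 reads (RPKM), the order of the receptors differed between the groups. In adult luminal cells Prlr led with 427 RPKM, followed by Esr1 with 25.8, Pgr with 17.2, Ghr with 14.1, Nr3c1 with 11.7 and Thra with 8.14. In adult basal cells Ghr (16.0) and Nr3c1 (15.0) led, followed by Thra (8.54), Pgr (5.48), Esr1 (0.856) and Prlr (0.111). In pregnancy Prlr (22.2) and Nr3c1 (22.0) were level, followed by Ghr (19.5), Esr1 (5.41), Thra (4.46) and Pgr (3.93). Single cells carried so much of several of these sums that neighbours in each order, other than Prlr in adult luminal cells, cannot be ranked with these data.

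The adult luminal sort was then split by other genes. A cell was called mature-luminal-marked where it detected at least 2 more of 8 mature luminal markers (Cited1, Areg, Prom1, Tph1, Stc2, Foxa1, Ly6a and Wnt4) than of 8 luminal progenitor markers, and progenitor-marked in the converse case. These classes are ranges of a marker difference and not cell types, and 21 of the 41 cells lay within 1 marker of a threshold. Class medians of reads were 708959.5 in 20 mature-luminal-marked, 393836 in 9 progenitor-marked and 637684 in 12 cells between.

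Prlr, Esr1 and Pgr were all higher in mature-luminal-marked than in progenitor-marked cells. Prlr ran from 2489 to 18123 CPM (median 7091) in mature-luminal-marked cells, from 11.4 to 682 CPM (median 79.0) in progenitor-marked cells and from 150 to 10357 CPM (median 4121) in those between. The mature and progenitor ranges did not overlap, and the log2 ratio of their summed levels was 4.83 (4.75 to 4.92). Esr1 was detected in 17 of 20 mature-luminal-marked, 1 of 9 progenitor-marked and 8 of 12 cells between, with a log2 ratio of mature-luminal-marked over progenitor-marked cells of 6.37 (5.25 to 7.82) on only 6 progenitor reads, and of 8.80 without progenitor-marked cell 28. Its summed level was 127 CPM in mature-luminal-marked, 1.53 in progenitor-marked and 141 in cells between, where cell 8 held 31.7% of the reads. The sum was thus not highest in the mature-luminal-marked class, but the median per cell was, at 68.3 CPM against 37.1 in cells between. Pgr was detected in 17, 2 and 6 cells, with summed levels of 157, 8.68 and 106 CPM and a log2 ratio of 4.18 (3.69 to 4.72), or 5.41 without progenitor-marked cell 32. Nr3c1 was detected in 7 of 20 mature-luminal-marked (15.4 to 59.2%), 5 of 9 progenitor-marked (21.2 to 86.3%) and 8 of 12 cells between, and the first 2 intervals overlap widely. Its summed level was higher in mature-luminal-marked than in progenitor-marked cells by 0.84 (0.62 to 1.07), by 0.01 without cell 35 and by 1.33 without progenitor-marked cell 11. The Ghr ratio of 3.59 was 0.70 without cell 12. For Thra 69 and 2 reads gave 3.34 (1.43 to 6.42), and 98.6% of the 69 came from cell 34. With these, 5 of 6 receptors were 2-fold or more higher in mature-luminal-marked cells, against 42.8% of 12288 genes. The mature and progenitor classes differ in depth and in many genes, and their part in these ratios was not tested.

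**Figure D2:**
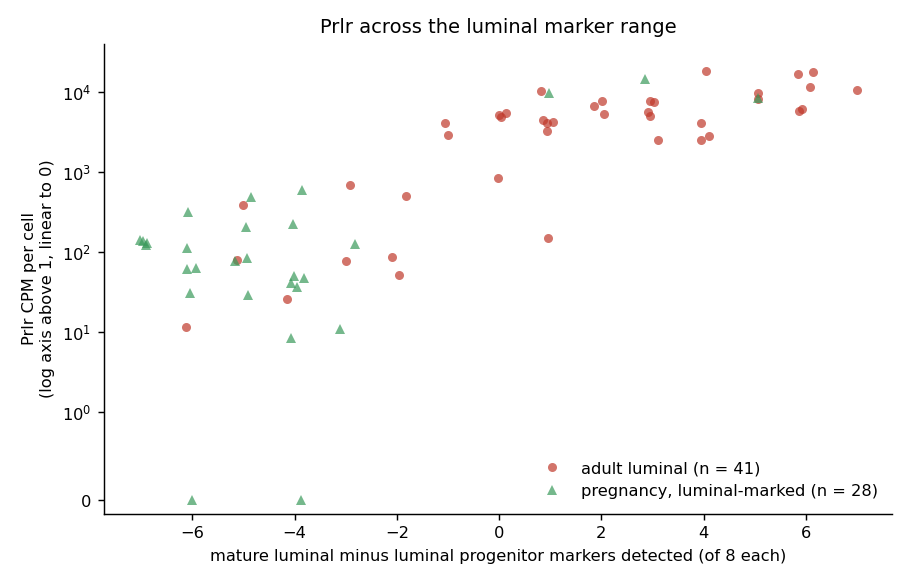
Prlr CPM of each cell (log axis above 1, linear to 0) against the number of mature luminal minus luminal progenitor markers detected, for 41 adult luminal cells (circles) and 28 luminal-marked pregnancy cells (triangles), with points shifted sideways to show overlaps. Adult cells with a difference of 2 or more lie at 2489 CPM or above, and all but 3 pregnancy cells lie at or under 596 CPM.

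Genes whose level most resembled that of a receptor were sought across the 41 adult luminal cells, over 5755 genes detected in at least 20% of them. Pearson's r of log2(CPM + 10) on thinned cells is given as a description, since the cells belong to 1 sort and differ in depth. For Prlr the closest were Ptn (0.90), a secreted heparin-binding factor, Cd164 (0.90), Nck2 (0.86), Wfdc2 (0.86) and Nek7 (0.83). For Pgr they were Tfcp2l1 (0.63), Agtrap (0.62), Cited1 (0.59), a transcriptional coactivator and itself among the mature luminal markers, Mprip (0.58) and 6030458C11Rik (0.58). For Esr1 they were Nop58 (0.60), Hsd17b12 (0.57), Xrn2 (0.57), Wfdc2 (0.56) and Cab39l (0.56). For Nr3c1 they were Stim2 (0.58), Kif2a (0.56), Prss23 (0.56), Atp2b1 (0.54) and Nicn1 (0.53), and for Ghr, on 9 detecting cells, Rabgap1l (0.66), Prpf38a (0.66), Mtpap (0.58), Rbm19 (0.57) and Mapk9 (0.57). Thra was detected in 6 cells, too few for this measure. Between receptors r was 0.53 for Prlr and Pgr, 0.49 for Prlr and Esr1 and 0.23 for Esr1 and Pgr. The log10 read count of the cell had an r of 0.52 with Prlr, 0.50 with Esr1 and 0.01 with Pgr.

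Pregnancy was compared with the adult sorts next. Stage and sort cannot be told apart in this comparison, because pregnancy cells were not sorted into layers, so the classes drawn from markers are given below the whole groups. Fewer cells of a kind and less RNA per cell cannot be told apart in the summed levels.

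Esr1, Pgr and Prlr were lower in pregnancy than in adult luminal cells. Prlr was detected in 53 of 96 pregnancy cells (55.2%, 44.7 to 65.4%), with a median of 27.7 and a maximum of 14390 CPM, and its summed level of 298 CPM was lower by a log2 ratio of -4.26 (-4.30 to -4.23). Esr1 was detected in 12 pregnancy cells (12.5%, 6.63 to 20.8%), with a median of 0 and a maximum of 1056 CPM, a summed level of 23.4 CPM and a log2 ratio of -2.25 (-2.39 to -2.12). Pgr was detected in 19 pregnancy cells (19.8%, 12.4 to 29.2%), with a median of 0 and a maximum of 635 CPM, a summed level of 27.0 CPM and a log2 ratio of -2.13 (-2.26 to -2.0). For each of these 3 genes the intervals of the shares in the 2 groups did not overlap. Single cells reached the adult range for each gene.

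Nr3c1 was the receptor most widely detected in pregnancy. It was found in 71 of 96 cells (74.0%, 64.0 to 82.4%), with a median of 72.4 and a maximum of 1095 CPM. Its summed level was 139 CPM, and its log2 ratio over adult luminal cells was 0.91 (0.83 to 1.00), short of 2-fold. Without adult luminal cell 35, which held 29.8% of the adult luminal Nr3c1 reads and all 10 basal markers, that ratio was 1.38. The detection interval overlapped that of adult luminal cells by under 1 percentage point. Over all genes 53.1% of 14862 were detected in a larger share of pregnancy than of adult luminal cells, and 3 of the 6 receptors were (Nr3c1, Ghr and Thra). Against adult basal cells 82.2% of 14848 genes were detected in a larger share of pregnancy cells, and 6 of the 6 receptors were.

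Ghr was detected in 31 pregnancy cells (32.3%, 23.1 to 42.6%), up to 944 CPM, with a summed level of 86.1 CPM and a log2 ratio of 0.46 (0.37 to 0.56) over adult luminal cells that became 3.00 without adult luminal cell 12. Thra was detected in 15 pregnancy cells (15.6%, 9.02 to 24.5%), up to 273 CPM, with a summed level of 10.0 CPM and a log2 ratio of -0.87 (-1.10 to -0.64) that became 0.18 without adult luminal cell 14. The direction for Thra thus rested on 1 adult cell, while for Ghr the direction held without that 1 adult cell and the size did not. Both also changed sign between title numbers up to 55 and above 55, a split described below. Over adult luminal cells Ghr stood at -0.35 (-0.51 to -0.19) and 0.80 (0.70 to 0.90), and Thra at 0.16 (-0.10 to 0.41) and -2.34 (-2.78 to -1.92). In all, 3 of 6 receptors were 2-fold or more lower in pregnancy than in adult luminal cells and 0 higher, against 32.2% and 24.2% of 14853 genes.

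Over adult basal cells, Prlr was higher in pregnancy by a log2 ratio of 7.65 (7.26 to 8.07) and Esr1 by 2.66 (2.38 to 2.95). Nr3c1 (0.55), Ghr (0.28), Pgr (-0.48) and Thra (-0.94) were under 2-fold apart. Single adult basal cells moved these values. Pgr stood at 1.43 without cell 94, Thra at 0.43 without cell 2, Esr1 at 6.37 without cell 88 and Prlr at 10.19 without cell 35. These 2 of 6 receptors past 2-fold upward, and 0 downward, compare with 29.9% of genes higher and 24% lower among 14825.

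**Figure D3:**
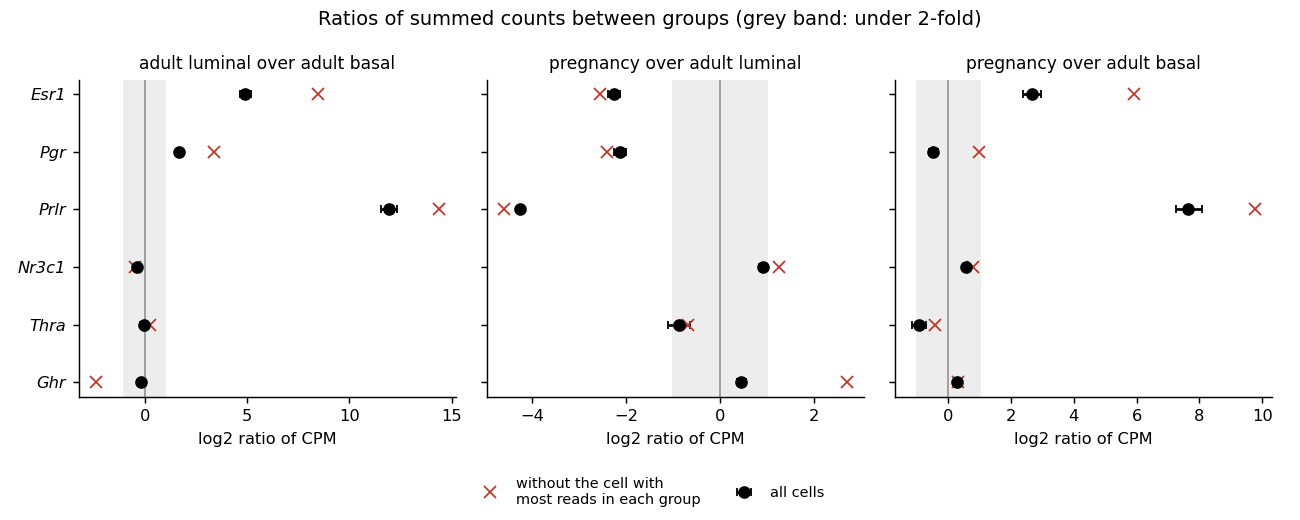
Log2 ratio of summed CPM of each receptor for 3 comparisons of groups, with exact 95% counting intervals (black), and the ratio after the cell with the most reads of the gene was left out of each group (red crosses). Prlr, Esr1 and Pgr lie above the 2-fold band in adult luminal over adult basal cells and below it in pregnancy over adult luminal cells, while Ghr moves from -0.18 to -2.40 in the former without those cells.

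Among pregnancy cells Prlr followed the luminal markers. It was detected in 24 of 28 luminal-marked (85.7%, 67.3 to 96.0%), 19 of 30 between and 10 of 38 basal-marked cells (26.3%, 13.4 to 43.1%). Luminal-marked pregnancy cells ranged from 0 to 14390 CPM of Prlr with a median of 97.5. Cells 70, 73 and 112, singled out after their values were seen, stood at 8469, 9652 and 14390 CPM, and the other 25 at 596 or less. These 3 cells had Esr1 at 1056, 300 and 316 CPM and detected 6, 4 and 6 of the 8 mature luminal markers, against a median of 1 in the class. Only 2 pregnancy cells met the rule for mature-luminal-marked cells (cells 70 and 112), so the adult class of that name has too few counterparts for a comparison. Against the adult luminal sort, luminal-marked pregnancy cells had log2 ratios of -3.52 (-3.56 to -3.47) for Prlr, -2.72 (-2.99 to -2.46) for Pgr, -1.65 (-2.15 to -1.18) for Thra, -1.42 (-1.60 to -1.24) for Esr1, -0.63 for Ghr and 0.69 (0.57 to 0.81) for Nr3c1. That is 4 of 6 receptors 2-fold or more lower, against 40.7% of 13812 genes, and the median of all genes was -0.68. Milk genes held 27.3% of the reads of this class and 1.25% of those of the adult luminal sort. Scaling factors that adjust for the make-up of the reads (TMM) were 0.886 and 1.20. Scaling by them would raise every ratio here, so that Esr1 would fall just short of 2-fold and Nr3c1 would pass it. Leaving out 1 cell moved several of these values. Without pregnancy cell 5, which detected 3 or more fibroblast markers and held 73.2% of the Pgr and 53.5% of the Esr1 reads of the class, Pgr stood at -4.57 and Esr1 at -2.47. Thra stood at -0.60 without adult luminal cell 14, Ghr at 1.91 without adult luminal cell 12 and Nr3c1 at 1.16 without adult luminal cell 35, so that the Thra call was lost, the Nr3c1 ratio passed 2-fold and the Ghr ratio turned. Prlr stood at -4.29 without pregnancy cell 112. For Esr1 the ratio was -0.58 in title numbers up to 55 and -2.16 above 55, a split described below. In the adult luminal sort 20 of 41 cells were mature-luminal-marked and in this pregnancy class 2 of 28 were, and the part of this mix in the ratios was not tested.

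Basal-marked pregnancy cells had more Prlr than adult basal cells, by a log2 ratio of 8.04 (7.64 to 8.46). Pregnancy cell 98 held 76.9% of those reads at 4424 CPM, with all 10 basal markers and 5 of the 8 mature luminal ones, and also had Pgr at 416 and Ghr at 944 CPM. Without it the Prlr ratio was 6.02 and the summed level 96.5 CPM, and 15 of the other 37 cells had a read, 9 of them at equal depth. Nr3c1 was detected in 27 of 38 basal-marked pregnancy cells (71.1%, 54.1 to 84.6%) and had a ratio of 1.10 (1.01 to 1.19), Esr1 a ratio of 1.22 (0.73 to 1.68) on 54 reads, Pgr 0.75, Ghr 0.64 and Thra -1.08. That made 3 of 6 receptors 2-fold or more higher and 1 lower, against 28.9% and 22.8% of 13980 genes. Single cells moved all 6 values, and the direction for Prlr held (6.02 without pregnancy cell 98 and 10.58 without adult basal cell 35). Esr1 stood at -0.06 without pregnancy cell 23 and at 4.93 without adult basal cell 88. Nr3c1 stood at 0.92 without pregnancy cell 86, and Thra at 0.29 without adult basal cell 2. Without cell 98 Pgr stood at 0.01 and Ghr at -0.51, and Pgr at 2.66 without adult basal cell 94. Pgr and Ghr also had opposite signs in title numbers up to 55 (-1.58 and -2.18) and above 55 (1.55 and 1.47).

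The pregnancy cells fall into title numbers up to 55 (45 cells) and above 55 (51 cells), which had 8.89% and 31.4% of reads in 8 milk genes and 19 and 6 cells with non-epithelial markers. What the numbers stand for is not given in the sources used here, and the split was taken from earlier work on these data. Prlr was detected in 21 and 32 cells with summed levels of 97.8 and 422 CPM, Nr3c1 in 36 and 35 cells with 174 and 117 CPM, and Esr1 in 5 and 7 cells with 35.7 and 15.8 CPM. Pgr was detected in 8 and 11 cells with 21.0 and 30.8 CPM, Ghr in 12 and 19 with 49.1 and 109 CPM, and Thra in 9 and 6 with 20.4 and 3.62 CPM. Prlr, Esr1 and Pgr were 2-fold or more lower than in adult luminal cells in both sets. Nr3c1 was 2-fold or more higher than in adult luminal cells in the lower set (1.24) and not in the upper (0.67). This contrast depends on the scaling. The TMM factors were 1.18 for the lower set, 0.743 for the upper set and 1.20 for adult luminal cells. Scaling by them would take the upper ratio past 2-fold as well.

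**Figure D4:**
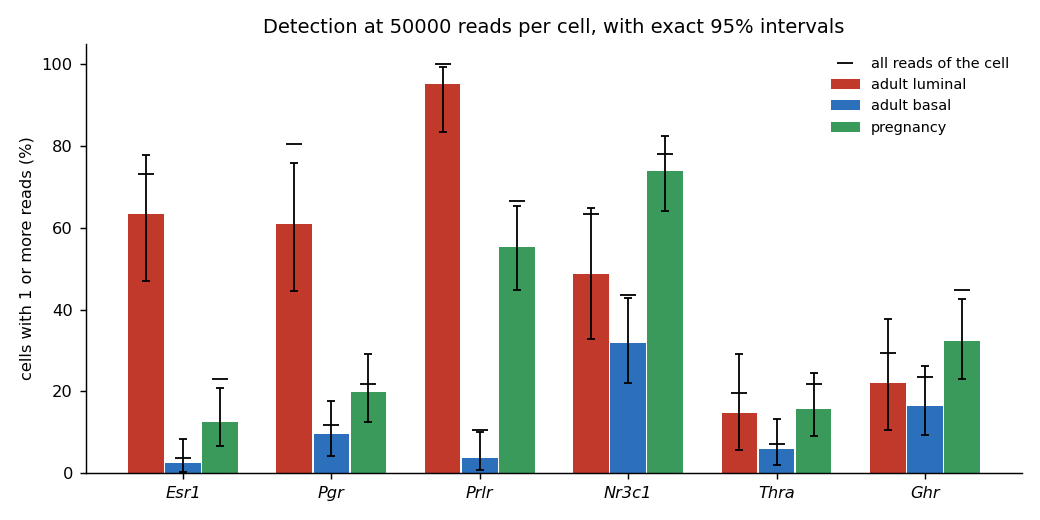
Percent of cells in which each receptor was detected at 50000 reads per cell (bars from 0) with exact 95% intervals, and the percent with any read at full depth (black dashes). Adult luminal cells lead for Esr1, Pgr and Prlr at 63.4%, 61.0% and 95.1%, and pregnancy cells lead for Nr3c1 at 74.0%.

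With all reads of each cell kept, more cells showed each receptor and the same group led. Esr1 was then read in 30 adult luminal, 3 adult basal and 22 pregnancy cells, Pgr in 33, 10 and 21, and Prlr in 41, 9 and 64. Nr3c1 was read in 26, 37 and 75 cells, Thra in 8, 6 and 21 and Ghr in 12, 20 and 43. Depth differs between the groups in these numbers.

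Receptors were then read together in the same cells. In adult luminal cells 18 of 41 (43.9%, 28.5 to 60.3%) detected Esr1, Pgr and Prlr at once, against 15.1 from the product of the 3 shares. Another 8 cells had Esr1 and Prlr without Pgr, 7 had Pgr and Prlr without Esr1, 6 had Prlr without the other 2, and 2 had none. At full depth 27 cells had all 3. Every adult luminal cell with Esr1 or Pgr thus also had Prlr. Esr1 and Pgr were found together in 18 cells where their shares gave 15.9, and Pgr and Ghr in 8 where they gave 5.49. Among the 20 mature-luminal-marked cells all 3 were found together in 14, where the product of the shares gave 14.4. In the 41 cells 11 of 15 pairs exceeded the product of their shares, with ratios from 0.82 to 1.52, but the 5 pairs with Prlr could hardly do otherwise with Prlr in 39 cells. Between 0 and 6 receptors were detected per cell, most often 3, in 18 cells.

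In pregnancy 3 of 96 cells (3.13%, 0.649 to 8.86%) detected Esr1, Pgr and Prlr at once, 42 had Prlr without the other 2 and 31 had none. Esr1 and Pgr were found together in 8 cells (8.33%, 3.67 to 15.8%) where the product of their shares gave 2.38, a ratio of 3.37. Of 9429 genes detected in 8 or more pregnancy cells, 6.3% were found with Esr1 in at least 2 times the number their shares give. Of these 8 cells, 5 (cells 5, 7, 23, 33 and 67) had no Prlr read at equal depth, and cells 5, 7 and 33 detected 3 or more fibroblast markers. Cells with a non-epithelial marker set made up 4 of the 12 cells with Esr1, 6 of the 19 with Pgr and 8 of the 53 with Prlr. They made up 21 of the 84 cells without Esr1, 19 of the 77 without Pgr and 17 of the 43 without Prlr. Among the 71 pregnancy cells with no such marker set, Esr1 and Pgr were together in 5 cells where 1.46 were given by the product, a ratio of 3.41. The 3 of the 8 cells with a Prlr read at equal depth were cells 71, 73 and 112, which had no non-epithelial marker set. Of these, cells 73 and 112 are among the luminal-marked cells with high Prlr. Pgr and Prlr were found together in 7 cells where 10.5 were given by the product, and Nr3c1 and Ghr in 27 where 22.9 were. Of 15 pairs 9 exceeded the product of their shares, and the median ratio was 1.06. In adult basal cells 0 of 85 detected all 3 genes, which allows a share of up to 3.53% by the floor of 3 cells (exact upper limit 4.25%), and 72 had none of them.

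**Figure D5:**
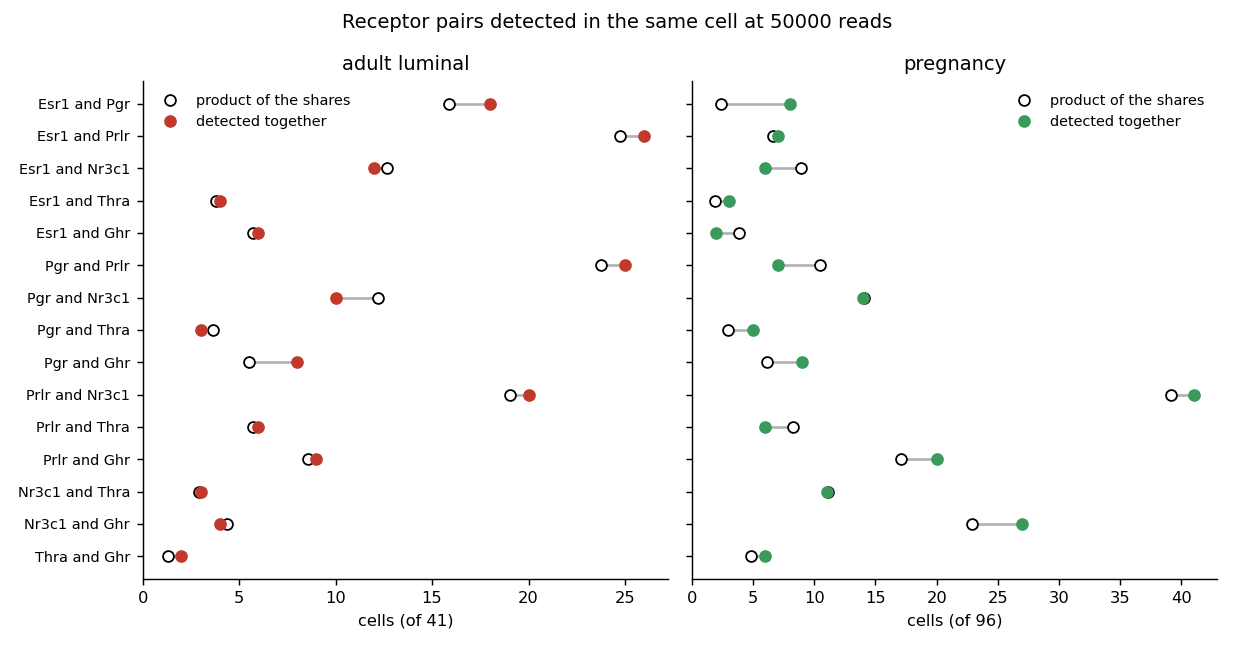
Number of cells in which each of 15 receptor pairs was detected together (filled circles) and the number that the product of the 2 detection shares gives (open circles), in 41 adult luminal and 96 pregnancy cells at 50000 reads. Esr1 and Pgr in pregnancy show the largest ratio, 8 cells against 2.38.

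Genes known to respond to these hormones, or to act beside the receptors, were read in the same cells. Among adult luminal cells Wnt4, a secreted factor known to act downstream of progesterone, was detected in 16 of 25 cells with Pgr (64.0%, 42.5 to 82.0%) and in 3 of 16 without (18.8%, 4.05 to 45.6%). Areg, an epidermal growth factor receptor ligand induced by estrogen, was detected in 25 of 26 cells with Esr1 and 8 of 15 without. Foxa1, a forkhead factor that opens chromatin for estrogen receptor alpha, was detected in 16 of 26 cells with Esr1 (61.5%, 40.6 to 79.8%) and 2 of 15 without (13.3%, 1.66 to 40.5%). Wnt4, Areg and Foxa1 are themselves among the 8 mature luminal markers used above. Esr1 and Pgr were each detected in 17 of 20 mature-luminal-marked cells, and in 1 and 2 of 9 progenitor-marked cells. These differences therefore cannot be told apart from the marker classes, and the share of all genes that differ as much was not computed. Cells with Esr1 had a median of 668890 reads and those without 393836. Tnfsf11, the RANK ligand, was found in 3 of 25 cells with Pgr and 2 of 16 without. In pregnancy Wnt4 was detected in 1 of 19 cells with Pgr and 7 of 77 without, and Areg in 1 of 12 with Esr1 and 3 of 84 without. Csn2, the gene for beta-casein, was detected in 53 of 53 pregnancy cells with Prlr and 37 of 43 without. Pregnancy cells with Prlr had a median of 240178 reads and those without 154088, and 8 of the 53 and 17 of the 43 had a non-epithelial marker set. Tsc22d3, a glucocorticoid-induced gene, was found in 37 of 71 pregnancy cells with Nr3c1 (52.1%) and 13 of 25 without (52.0%). Fkbp5, another of the glucocorticoid targets, was found in 21 of 71 (19.3 to 41.6%) and 3 of 25 (2.55 to 31.2%), and these intervals overlap. In adult luminal cells Tsc22d3 was found in 17 of 20 cells with Nr3c1 and 12 of 21 without, and Fkbp5 in 4 of 20 and 6 of 21, so the direction was mixed.

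Lists of pathway genes were counted at the same 2-fold threshold. Beside these counts, 36% of all genes were higher and 24% lower in adult luminal than in adult basal cells (median log2 ratio 0.33), and 24.2% were higher and 32.2% lower in pregnancy than in adult luminal cells (median -0.40). In them recur 8 genes of the mature luminal and progenitor marker lists, so these lists and the classes above are not independent. Of 11 estrogen and progesterone targets 5 were higher and 2 lower in adult luminal than in adult basal cells, and of 12 in pregnancy over adult luminal cells 3 were higher and 6 lower, with a median log2 ratio of -1.11 against -0.40 for all genes. Areg stood at 890 CPM in adult luminal, 0.448 in adult basal and 1.42 in pregnancy cells. Stc2, encoding the secreted glycoprotein stanniocalcin 2, stood at 118, 0 and 4.40 CPM. Calca, which encodes calcitonin, stood at 486, 0 and 6.04 CPM, with 56.7% of the adult luminal reads in a single cell. Id4, a negative regulator of helix-loop-helix factors, went the other way at 0 CPM in adult luminal, 26.9 in adult basal and 19.8 in pregnancy cells.

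Of 12 prolactin targets 11 were higher in adult luminal than in adult basal cells and 0 lower, against 36% and 24% of all genes, and in pregnancy over adult luminal cells 6 were higher and 3 lower. Csn2 stood at 0.70 CPM in adult basal, 2813 in adult luminal and 55597 in pregnancy cells, and Wap, the whey acidic protein gene, at 0, 9.75 and 4184 CPM. Tph1, the serotonin synthesis enzyme, ran against the milk genes, at 776 CPM in adult luminal and 60.3 in pregnancy cells. Over the same comparison Prlr itself was lower by -4.26. Of the 14 genes of the pathway under Prlr and Ghr, 3 were higher and 6 lower in adult luminal than in adult basal cells. Stat5a stood at 312 CPM in adult basal, 82.2 in adult luminal and 59.4 in pregnancy cells, Jak1 at 904, 400 and 422, and Stat3 at 399, 366 and 299.

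Of 10 glucocorticoid targets 1 was higher and 4 lower in pregnancy than in adult luminal cells, with a median log2 ratio of -0.08. Tsc22d3 stood at 12.4 CPM in adult basal, 260 in adult luminal and 73.6 in pregnancy cells, and Dusp1, a phosphatase of the MAP kinases, at 495, 53.4 and 213 CPM. The metallothionein gene Mt1 was the most abundant of the list at 10580, 3413 and 3100 CPM. Of 6 thyroid hormone targets 4 were higher and 1 lower in adult luminal than in adult basal cells, with Thrsp, a regulator of lipid synthesis, at 0 CPM in adult basal, 139 in adult luminal and 242 in pregnancy cells.

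Of 16 receptor cofactors and chaperones 0 were higher and 7 lower in pregnancy than in adult luminal cells, against 24.2% and 32.2% of all genes, with a median log2 ratio of -0.81 against -0.40 for all genes. Foxa1 stood at 280 CPM in adult luminal, 0 in adult basal and 7.38 in pregnancy cells, and Cited1 at 889, 0 and 11.4 CPM. Against a floor of 3 reads over the adult basal cells these are log2 ratios of at least 11.70 for Foxa1 and 13.37 for Cited1. Hsp90ab1, the chaperone that holds unliganded steroid receptors, stood at 3867, 4386 and 2239 CPM.

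Other receptors of the same families were spread over the groups. Of 17 other nuclear receptors 7 were higher and 2 lower in adult luminal than in adult basal cells, and 5 were higher and 4 lower in pregnancy than in adult luminal cells. Vdr, the vitamin D receptor, stood at 204 CPM in adult basal, 168 in adult luminal and 117 in pregnancy cells, and Thrb, the other thyroid hormone receptor, at 65.4, 63.7 and 98.1 CPM. Of 13 other peptide hormone and cytokine receptors 4 were higher and 6 lower in adult luminal than in adult basal cells. Oxtr, the oxytocin receptor of contractile cells, stood at 828 CPM in adult basal, 23.5 in adult luminal and 148 in pregnancy cells, and Lifr, the receptor of leukaemia inhibitory factor, at 624, 222 and 250 CPM.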

How the data were processed

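Gene expression was measured in 278 single cells, each of which was a library. Per the labels and the study's methods, the authors mapped read pairs to mm10 with Subread 1.4.6 and the deposited per-cell tables hold raw counts of read pairs, made by featureCounts with Rsubread's RefSeq annotation and without molecular identifiers. The whole-series table was not used. Of 27179 Entrez IDs, 1904 had no symbol in the GRCm38.p6 table (the same build as mm10), and these, 15 mitochondrial and 166 ribosomal genes were left out. Cells with 50000 or more reads in the 25094 kept genes were retained, which dropped 2 adult luminal, 27 adult basal and 27 pregnancy cells. The authors inspected capture sites by eye. No doublet caller was run.

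Cells were thinned once to 50000 reads (seed 1, numpy 2.4.6) for detection, co-detection and marker counts. Counts were summed per group for CPM, and ratios of sums have exact 95% intervals conditional on the total (scipy 1.17.1). A summed count of 0 was set to a floor of 3 reads over the group. Ratios over all genes used those with 1 CPM or more in 3 or more cells, and a gene was counted at 2-fold or more. TMM factors came from edgeR 4.0.16. On simulated counts for 12146 genes with 200 changed (adult luminal over adult basal), 100% of the changed genes had the right direction and 95.2% of intervals covered the truth. These counts were drawn from set proportions of the summed reads, with no variation between cells or from PCR. The figures thus check the calculation only, and coverage in the real data was not tested.

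The 6 genes, the marker and pathway lists and the comparisons were chosen with earlier results of these data known. Genes named were the members, 5 genes per member by r, 4 sort checks and, per list, the 3 highest in CPM and the 2 largest ratios of a comparison, of which the text gives a selection. Cells named singly were chosen after their values were seen. No replicate exists, no animal is named and no test was run.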

Additional observations from a re-analysis of the deposited data

Results flagged for a closer look

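Receptor reads were also present in the 56 cells left out for having under 50000 reads, which entered no comparison. Counts above 3 reads over a group, the level that a count of 0 allows, are given. The 2 adult luminal cells held 240 Prlr, 7 Pgr and 5 Esr1 reads. The 27 adult basal cells held 12 Nr3c1 reads, in 6 cells. The 27 pregnancy cells held 43 Nr3c1 reads in 12 cells, 41 Prlr reads in 7 cells, 40 Ghr reads in 5 cells and 6 Pgr reads in 2 cells.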

How the results depend on the processing

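No paired analysis was possible because each cell was its own library, its number only names it and no test was run. The numbers of receptors past 2-fold in the direction counted (3 higher in adult luminal than in adult basal cells, 3 lower in pregnancy than in adult luminal cells, 2 higher in pregnancy than in adult basal cells) stayed within 1.5 times under equal weight of cells, other totals, TMM scaling, the study's minimums, removal of cells with non-epithelial markers, of the top cell or of 3 doubtful cells (adult luminal 26 and 35, pregnancy 98, added after seeing the data), and each set of pregnancy numbers. Without the top cell of each group, receptors also passed 2-fold in the other direction, Ghr in adult luminal over adult basal cells (-2.40) and Nr3c1 (1.26) and Ghr (2.71) in pregnancy over adult luminal cells. In these 3 comparisons no ratio past 2-fold changed sign. In basal-marked pregnancy over adult basal cells Esr1 did (1.22 to -0.06 without pregnancy cell 23) and so did Thra (-1.08 to 0.29 without adult basal cell 2). TMM moved every log2 ratio by -0.16 (adult luminal over adult basal), 0.38 (pregnancy over adult luminal) and 0.22 (pregnancy over adult basal), and with it Nr3c1 in pregnancy over adult luminal cells reached 1.29. Without the 3 doubtful cells it was 1.45. Without thinning, detection was 22.9% for Esr1 and 44.8% for Ghr in pregnancy, 80.5% for Pgr and 100% for Prlr in adult luminal cells, 10.6% for Prlr and 43.5% for Nr3c1 in adult basal cells and 66.7% for Prlr in pregnancy, and 6 adult luminal pairs exceeded the product of their shares in place of 11. With 5 or more reads, detection in adult luminal cells was 26.8% for Esr1, 36.6% for Pgr, 29.3% for Nr3c1, 2.44% for Thra and 7.32% for Ghr, in adult basal cells 3.53% for Pgr and 16.5% for Nr3c1, and in pregnancy 7.29% for Pgr, 30.2% for Prlr, 47.9% for Nr3c1, 3.13% for Thra and 19.8% for Ghr, and 5 adult luminal cells had Esr1, Pgr and Prlr together in place of 18. At 100000 reads Prlr was detected in 67.9% and Ghr in 46.2% of pregnancy cells. Depth and single cells limit Esr1, Pgr, Thra and Ghr most, and absence of a read is not absence of the receptor.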
